A study of Citrus unshiu with 6 samples.

Results

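Ripening of normal Satsuma mandarin peel was followed by setting the mature control peel at 170 days after full bloom (DAFB), CK170, against the control peel at 80 DAFB, CK80, the stage of cell enlargement. All genes with an FPKM (sequenced fragments scaled to transcript length and library size, so a level per length) of at least 1 in the higher of both libraries were taken, which gave 17703 of the 23099 genes in the table. The choice used only this minimum level and not the direction of change. The fruits were of Citrus unshiu "Yamashitabeni wase", on trees 8 years old that were grafted on trifoliate orange. CK trees kept all their fruits, whereas peel with roughing disorder (RD), used here as a second peel of the same ages, came from trees thinned severely at fruit set, on which 15 upward fruits were left. No other agent or genotype distinguished the groups, and CK and RD thus came from different trees with different fruit loads. Peel was taken at 30, 80 and 170 DAFB, and each of the 6 libraries was made from 1 pool that mixed 3 peel samples. With 1 library per stage no replicate check was possible, so values stand without SD or p, and every difference below is a difference between pools. The authors' FPKM gave no reads per gene, so the depth behind single values is unknown.

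Citrus peel is photosynthetic while the fruit grows. As it ripens, chloroplasts turn into chromoplasts, chlorophyll is broken down, and orange carotenoids accumulate. Ethylene and abscisic acid are the hormones best known for hastening this degreening, and gibberellin and nitrogen for delaying it. The outer peel, the flavedo, also carries the oil glands, rich in terpenes, and the cuticle, while the inner white albedo is made of loose cells with pectin-rich walls. The pools were whole peel, and in such bulk samples fewer cells of a type and less RNA per cell cannot be told apart.

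A gene was counted as changed when its FPKM, with 0.1 added, differed at least 2-fold. By this rule 2548 genes (14.4% of those compared) were higher in CK170 and 3066 (17.3%) were lower, while 12089 lay within 2-fold. The lower side also held the larger changes. At least 4-fold differences numbered 924 upward and 1536 downward, and at least 16-fold differences 271 and 454. The median log2 ratio of CK170 to CK80 was 0.18 over all members, with quartiles of -0.53 and 0.65. It was 0.19 over the 15534 genes with an FPKM of at least 1 in both libraries, and changes of single genes and lists are best read against this general shift. Another 1232 members reached this level only in CK80 and 937 only in CK170. Just inside the minimum level, 161 members had 1 to 1.1 FPKM in their higher library, and just outside it 195 genes had 0.9 to below 1. The balance between both directions depended on the scaling. With that median set to 0, 1972 genes rose and 3549 fell. ACTIN (Cs7g28810) served as the reference gene in quantitative PCR of these peels. It had an FPKM of 192 in CK80 and 303 in CK170, and relative to it 1205 genes were higher and 5212 lower, so that 18.8% of the called genes were higher instead of 45.4%.

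**Figure D1:**
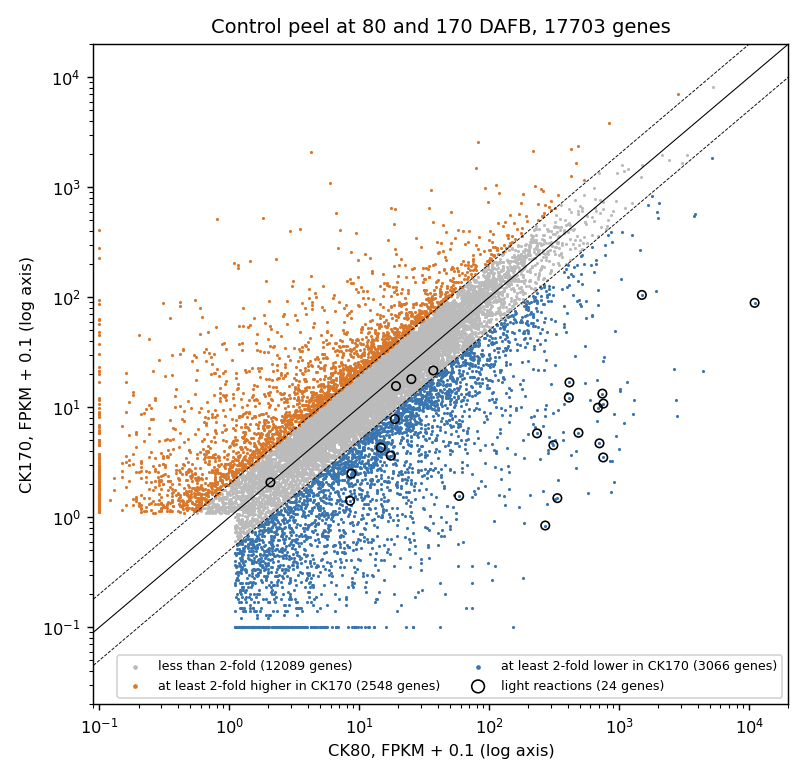
FPKM of each of the 17703 genes in CK80 (x axis) and CK170 (y axis), each with 0.1 added and on log axes; dashed lines mark 2-fold. The 2548 orange genes were higher and the 3066 blue genes lower in CK170, and 20 of the 24 circled genes of the light reactions lay below the lower line.

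The most abundant described transcripts of CK80 were replaced in part by others in CK170. Ranks of single genes here leave out genes whose protein match is hypothetical or uncharacterized. The light-harvesting gene Cs2g03780, for chlorophyll a-b binding protein 3C, led in CK80 with an FPKM of 10984 and had 88.6 in CK170. A metallothionein-like gene (Cs1g07330), of a family of metal-binding proteins, led in CK170 with 8108 and had 5293 in CK80, which is within 2-fold. A cucumisin-like subtilase (orange1.1t05522), a serine protease, rose from 2844 to 7033. Other genes among the 10 most abundant described ones of CK170 rose more steeply. The vacuolar cysteine proteinase RD21a (Cs3g23180) had an FPKM of 478 in CK80 and 2373 in CK170, and expansin-A1 (Cs5g10820), which loosens cell walls, 428 and 2203. Phosphoenolpyruvate carboxykinase (Cs3g16700), an enzyme that leads from organic acids towards sugars, had 78.3 and 1499. Among the abundant genes of CK80, a germin-like protein (Cs5g25680) fell from 3756 to 546, and a glycine-rich protein (Cs2g20230) from 5180 to 1848. Dehydrin (Cs3g26970), a protein of drying and cold tolerance, fell from 2020 to 718. Some abundant genes of general use stayed within 2-fold, such as polyubiquitin 4 (Cs6g11770), with 3293 and 1978, and a glyceraldehyde-3-phosphate dehydrogenase of glycolysis (Cs5g06870), with 1082 and 1403. Over all genes, described or not, the 10 leading ones gave 7.46% of the summed FPKM in CK80 and 5.83% in CK170.

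Among described genes with at least 20 FPKM in the higher library and above 0 in both, the largest falls included sesquiterpene synthases and plastid proteins. Genes listed at 0 in one library have no fold and stand outside this ranking and that of the rises. They are given below with their lists, among them a caffeic acid methyltransferase (orange1.1t04193, 153 in CK80) and valencene synthase (Cs5g12900, 408 in CK170). A pair of farnesene synthases close in the numbering, enzymes of a sesquiterpene of peel oil, had nearly vanished at maturity: Cs4g12400 had an FPKM of 77.7, 73.0 and 0.05 at 30, 80 and 170 DAFB in CK, and Cs4g12350 had 126, 105 and 0.17. In RD they were already lower at 80 DAFB, at 15.8 and 16.2, and stood at 1.09 and 2.15 at 170 DAFB. Both have the same description, so that reads may have been split between them. Chloroplast aldolase 2 (Cs8g08710), oxygen-evolving enhancer protein 3 (Cs2g07330) and thioredoxin M (Cs3g20630), a redox regulator of chloroplast enzymes, followed with log2 ratios of -8.39, -8.32 and -8.26. Outside the plastid, secoisolariciresinol dehydrogenase (Cs6g12450), of lignan synthesis, fell from 74.1 to 0.15. Tetraketide alpha-pyrone reductase 1 (Cs3g01140), known in Arabidopsis from the synthesis of the pollen wall polymer, fell from 461 to 2.70. A lectin-related gene (orange1.1t05126) had fallen before the ripening step, from 11191 in CK30 to 41.8 in CK80, and went on to 0.15 in CK170.

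By the same ranking, the largest rises were in genes nearly silent at 80 DAFB, and several of these were enzymes that modify small molecules. UDP-glycosyltransferase 90A1 (Cs2g28370), which belongs to the enzymes that attach sugars to small molecules, had an FPKM of 0.81, 1.72 and 529 in CK30, CK80 and CK170. In RD30, RD80 and RD170 it had 2.94, 3.64 and 40.2. CK170 was thus far above every other library, with RD170 next. Cinnamoyl-CoA reductase 1 (Cs2g30460), of the entry into lignin synthesis, took the same course, from 0.99 in CK80 to 202 in CK170, with 34.4 in RD170. Cytochrome P450 83B1 (Cs5g25920) rose from 2.81 to 401, and 2-hydroxyisoflavanone dehydratase (Cs9g06450) from 3.40 to 418. A mitoferrin (Cs6g09160), of the carriers that bring iron into mitochondria, rose from 6.56 to 582 in CK and from 7.92 to 315 in RD. The homeodomain factor ATHB-12 (orange1.1t02547), known in Arabidopsis as a gene induced by abscisic acid and drought, rose from 0.52 to 65.8. A major allergen Pru ar 1 homolog (Cs9g02820), a protein of the pathogenesis-related family PR-10, rose from 0.32 to 83.2. Tryptophan aminotransferase-related protein 4 (Cs3g21870) rose from 0.49 to 79.3 in CK and from 0.40 to 57.7 in RD. The putative methyltransferase orange1.1t00787 was high in CK170 alone, at 41.5, against at most 0.88 in the other 5 libraries.

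Genes of the light reactions had the lowest median of the 44 groups of genes drawn up by description. Of 24 members compared, 20 were at least 2-fold lower and none was higher, against 17.3% and 14.4% of all genes, and the median log2 ratio was -5.15. Their summed FPKM was 6515, 18770 and 359 in CK30, CK80 and CK170, and 14440, 17005 and 1822 in RD30, RD80 and RD170. The sum was thus highest at 80 DAFB in both peels, and the mature control pool was the lowest of all. The list held antenna proteins, core subunits of both photosystems and the oxygen-evolving complex, and all of these kinds were among the lower members. As 7989 of the 17703 genes compared had a described protein match, a list can miss members without one. CK counts of the other lists below are likewise to be read beside the shares of all genes, 17.3% lower and 14.4% higher.

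Among the antenna proteins, which collect light for the photosystems, the leading one, Cs2g03780, was 124-fold lower in CK170. CP24 (orange1.1t03504), a minor antenna protein, had 168, 703 and 4.59 in CK and 661, 619 and 68.9 in RD, in the order of the stages. Of photosystem I, which reduces ferredoxin, subunit V (Cs4g07650) fell from 754 to 10.7 and subunit VI-2 (Cs1g15170) from 684 to 9.79. A pair of genes for subunit II (Cs5g31180 and Cs9g06660) fell to 5.75 and 4.41. Of photosystem II, which splits water, protein psbY (Cs7g09900) fell from 334 to 1.39 and oxygen-evolving enhancer protein 3 (Cs2g07330), which stabilises the water-splitting site, from 269 to 0.74. The photosystem II 22 kDa protein (Cs3g19650), the sensor of excess light, fell from 413 to 16.7. The 10 kDa polypeptide of photosystem II (Cs5g15450) kept more, with 1491 in CK80 and 105 in CK170, and was the most abundant of the list in CK170. The members within 2-fold were weakly expressed throughout: psbP domain-containing protein 3 (Cs3g27720) with 25.02 and 17.9, a thylakoid lumenal protein (orange1.1t01269) with 36.97 and 21.5, chlorophyll a-b binding protein 1B (Cs9g17350) with 19.0 and 15.5, and psbQ-like protein 3 (Cs6g17250) with 1.97 in both.

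Enzymes of carbon fixation split into a lowered and an unchanged part. Of 10 members 6 were lower and none was higher (median -3.58). The small chain of Rubisco (Cs6g18680), the enzyme that fixes carbon dioxide, fell 207-fold in CK, from 4419 to 21.4, and from 3842 to 290 in RD. Aldolase 2 (Cs8g08710), of the Calvin cycle in the plastid, had 190, 2787 and 8.23 in CK and 1048, 2190 and 202 in RD. Both subunits of the plastid glyceraldehyde-3-phosphate dehydrogenase, A (Cs2g14940) and B (Cs3g27520), fell from 916 and 285 to 8.58 and 5.23. Fructose-1,6-bisphosphatase (Cs6g07430), which releases fructose 6-phosphate in the cycle, fell from 124 to 2.12, and Rubisco activase 1 (Cs6g06660) from 105 to 39.1. Aldolase 3 (Cs2g13410), another plastid form, had instead 175 and 215, a second fructose-1,6-bisphosphatase (orange1.1t04328) 9.20 and 9.62, and triosephosphate isomerase (Cs8g09020) 135 and 81.7. Carbonic anhydrase (Cs2g28060), which supplies carbon dioxide in the chloroplast, fell from 340 to 2.08.

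Chlorophyll synthesis genes fell most at the steps that serve chlorophyll alone. Of 12 members 7 were lower and none was higher (median -1.11). Protochlorophyllide reductase (Cs1g06850), the step that needs light, had an FPKM of 130, 307 and 8.70 in CK and 347, 326 and 47.2 in RD, and was 35.3-fold lower in CK170 than in CK80. The ChlH subunit of magnesium chelatase (Cs9g13460), which puts magnesium into the ring, fell from 137 to 4.14, and the cyclase that closes the fifth ring (Cs6g16200) from 221 to 8.16. The other chelatase subunits changed less, with 95.6 and 45.6 for ChlI (Cs2g05100) and 15.9 and 11.8 for ChlD (Cs2g30990). Glutamyl-tRNA reductase 1 (Cs3g16730), the regulated entry of the pathway, fell from 125 to 39.6. Most early steps shared with heme lay within 2-fold, among them glutamate-1-semialdehyde aminomutase (orange1.1t02623) with 61.2 and 90.2 and protoporphyrinogen oxidase 1 (orange1.1t01782) with 70.4 and 59.98. GLK1 (Cs2g26640), a transcription factor known to switch on chlorophyll and antenna genes, fell from 20.2 to 1.53 in CK and from 27.4 to 4.17 in RD.

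Listed genes of chlorophyll breakdown were mostly within 2-fold on the deposited scale, where 1 of 7 members was higher and none was lower (median -0.52). With centring on the overall median 2 were lower, and relative to ACTIN 5 (median -1.17). The list held red chlorophyll catabolite reductases, chlorophyllases, pheophorbide a oxygenase, NOL and 7-hydroxymethyl chlorophyll a reductase. It does not cover every step of the breakdown. The member that rose was a red chlorophyll catabolite reductase (Cs1g22680), of the step after the ring is opened, with 0.07, 0.21 and 87.6 in CK and 0.50, 0.36 and 12.6 in RD. Its log2 ratio in CK was 8.14. Its neighbour of the same description (Cs1g22670) was the expressed copy at 80 DAFB and had 54.8 in CK80 and 38.3 in CK170, so that the summed level of both copies rose and the order between them turned. Pheophorbide a oxygenase (Cs8g15480), which opens the ring and makes the loss of green irreversible, had 67.3 and 60.5. Chlorophyllase-1 (Cs5g16830) had its high level at 30 DAFB (190 in CK30) and stood at 20.02 and 11.2 in CK80 and CK170. NOL (Cs7g24010), which starts the breakdown of chlorophyll b, had 12.4 and 7.37.

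**Figure D2:**
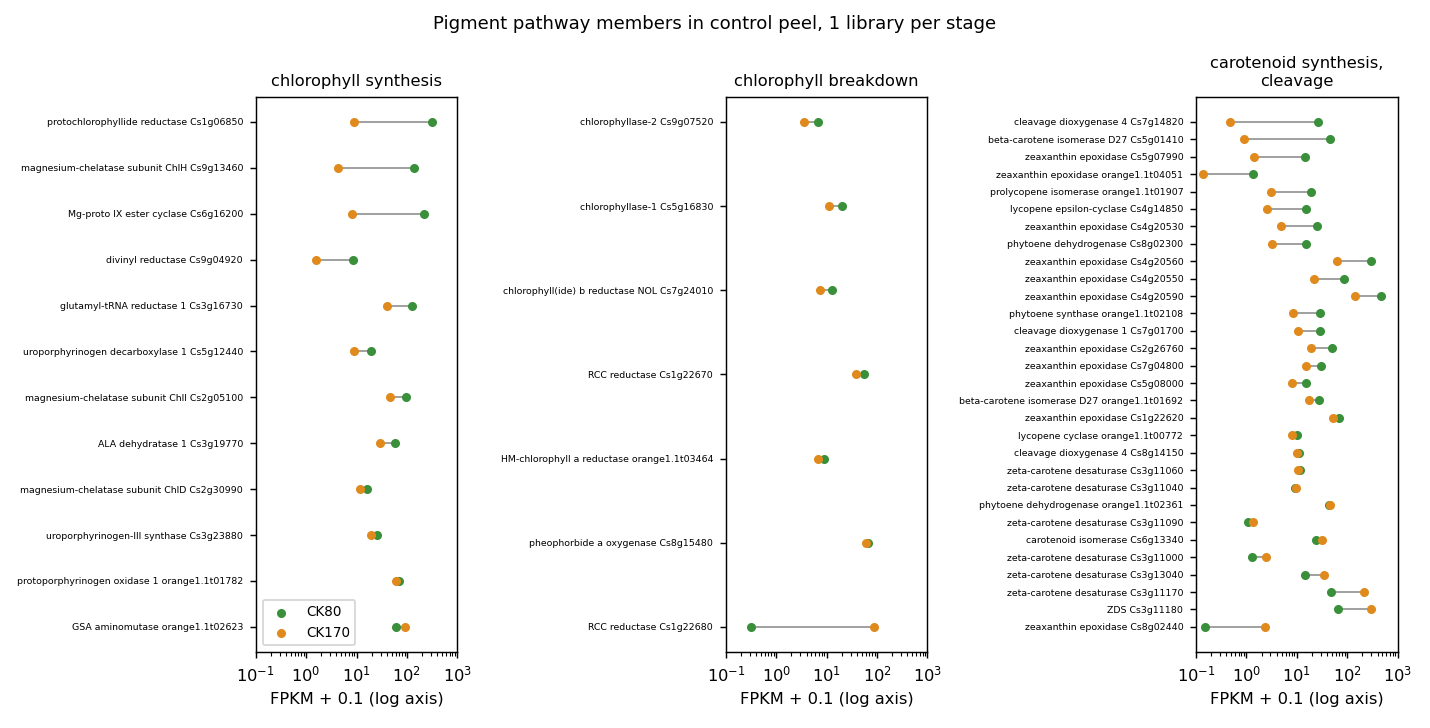
FPKM with 0.1 added (log axis) in CK80 (green points) and CK170 (orange points) for each compared member of 3 pigment lists, 1 library per stage. Chlorophyll synthesis had 7 lower and no higher members of 12, chlorophyll breakdown was on the deposited scale within 2-fold except Cs1g22680 (relative to ACTIN 5 of its 7 members were lower), and the carotenoid list had 15 lower and 4 higher members of 30.

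Carotenoid genes moved both ways, and 3 of the 7 genes described as zeta-carotene desaturase rose. Of 30 members of synthesis and cleavage 4 were higher and 15 lower (median -0.97). The lower ones were more often described as zeaxanthin epoxidase than as any other enzyme, so this name weighs heavily in the count. Zeta-carotene desaturase (Cs3g11180), which carries the pathway on to lycopene, had 33.7, 64.4 and 301 in CK and 48.8, 63.2 and 141 in RD. A partial copy beside it (Cs3g11170), which had 46.6 and 216, rose by nearly the same ratio, and reads may have been shared between both. One more copy (Cs3g13040) rose from 14.7 to 34.4, whereas Cs3g11000, Cs3g11040, Cs3g11060 and Cs3g11090 stayed within 2-fold, at no more than 11.5 in either library. No gene described for another step from phytoene to lycopene passed the limit upward, and copies without a description are not in the list. Phytoene synthase (orange1.1t02108), the entry of the pathway, fell from 28.4 to 8.37, while phytoene dehydrogenase (orange1.1t02361) had 42.9 and 45.8 and carotenoid isomerase (Cs6g13340) 24.5 and 31.4. The weaker genes described for these steps fell, phytoene dehydrogenase Cs8g02300 from 15.4 to 3.08 and prolycopene isomerase orange1.1t01907 from 18.8 to 2.99. At the branch behind lycopene, lycopene epsilon-cyclase (Cs4g14850), of the branch to lutein, fell from 15.5 to 2.52, whereas the gene described as lycopene cyclase (orange1.1t00772) had 10.1 and 8.04. Of the genes that bear the name zeaxanthin epoxidase, which turns zeaxanthin into violaxanthin, Cs1g22620 had 67.6 and 53.1, and the abundant ones fell, Cs4g20590 from 479 to 140 and Cs4g20560 from 300 to 63.7. Several of these are neighbours in the numbering and are known by description only. Among the genes of carotenoid cleavage, carotenoid cleavage dioxygenase 4 (Cs7g14820) fell from 26.6 to 0.37, a second gene of this name (Cs8g14150) had 10.9 and 10.1, and cleavage dioxygenase 1 (Cs7g01700) fell from 28.6 to 10.5. Beta-carotene isomerase D27 (Cs5g01410), of strigolactone synthesis, fell from 45.9 to 0.80.

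Geranylgeranyl diphosphate synthases, which make the precursor of both carotenoids and the phytol tail of chlorophyll, went different ways. Cs1g23670 rose from 111 to 283 and Cs6g17500 from 5.98 to 17.2, whereas Cs6g17510 fell from 85.3 to 4.01. Their RD values at 80 and 170 DAFB were 107 and 80.5, 4.61 and 4.21, and 49.5 and 21.0, so that neither of the genes that rose in CK passed the limit in RD. Relative to ACTIN neither passed it in CK. Upstream, in the supply of plastid isoprenoids, 1-deoxyxylulose 5-phosphate synthase 2 (Cs1g20530), the entry step, fell from 229 to 79.6, and the last reductase (Cs5g28200) had 487 and 301. The plastid-lipid-associated protein Cs2g02520, of the family of fibrillins that hold carotenoids in chromoplasts, rose from 96.2 to 194, just past the limit, and probable plastid-lipid-associated protein 8 (Cs7g07440) fell from 130 to 18.0. Ribosomal proteins of the plastid had 8 lower and no higher members of 22 (median -0.77), with 30S protein S17 (Cs1g15190) at 52.7 and 17.9.

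**Figure D3:**
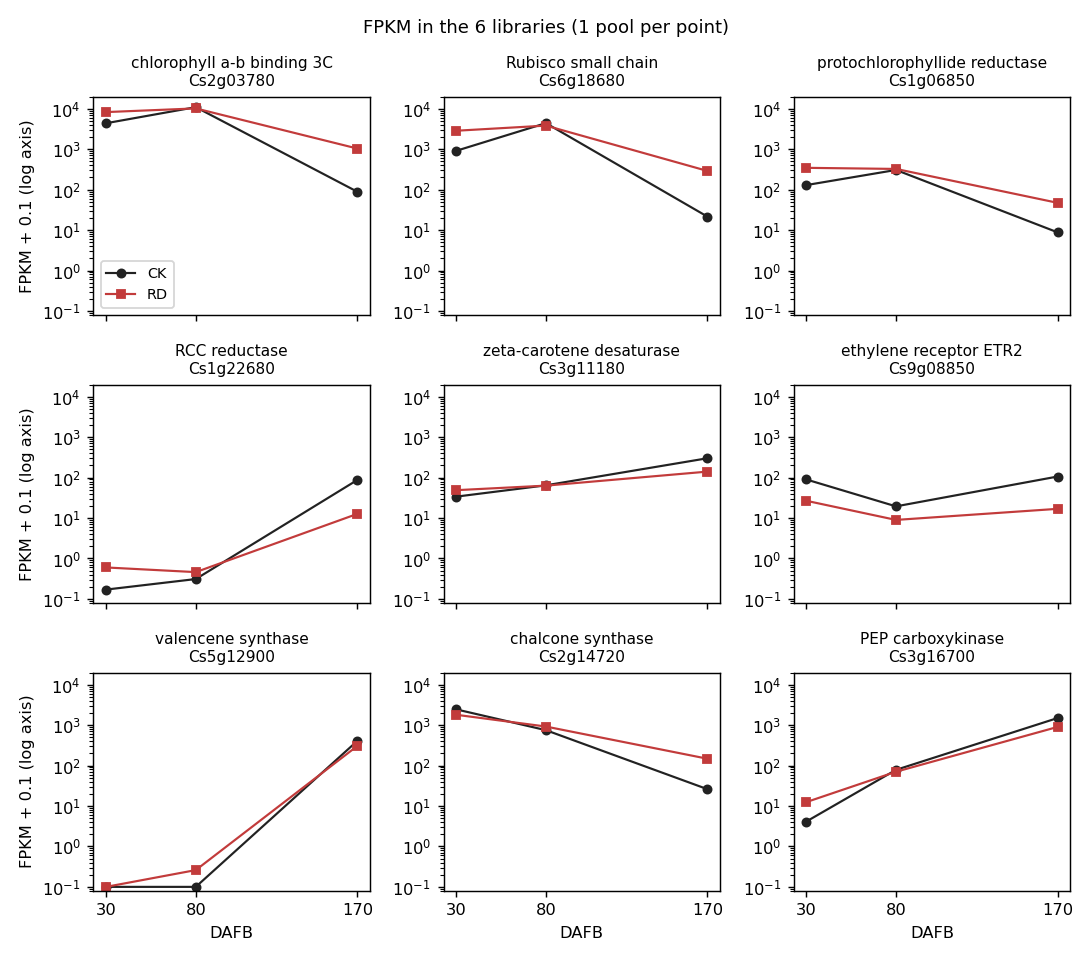
FPKM with 0.1 added (log axis) at 30, 80 and 170 DAFB for 9 genes in CK (black circles) and RD (red squares), 1 pool per point. The photosynthesis genes were high at 80 DAFB and lowest in CK170, and RCC reductase Cs1g22680, valencene synthase Cs5g12900 and PEP carboxykinase Cs3g16700 were highest in CK170.

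Genes of the list for ethylene, a gas hormone of ripening and senescence, were higher at maturity in CK. None of those compared was described as an enzyme of ethylene synthesis, so the list does not show whether the hormone itself rose. Of 9 members 6 were at least 2-fold higher in CK170 and none was lower (median 1.06), while in RD none passed the limit from 80 to 170 DAFB (median 0.07), where 8.47% of all genes were higher and 17.2% lower. The CK count is close to the limit, since 3 members passed once ratios were centred on their overall median or on ACTIN. These were a pair of receptors and a protein that acts on receptors. Ethylene receptor ETR2 (Cs9g08850) had an FPKM of 90.0, 19.4 and 106 in CK and 26.7, 8.89 and 16.8 in RD. Ethylene response sensor 1 (Cs5g33560), another receptor, had 18.3, 31.3 and 115 in CK and 22.8, 30.9 and 44.5 in RD. REVERSION-TO-ETHYLENE SENSITIVITY 1 (Cs4g18570), which in Arabidopsis aids the receptor ETR1, had 9.16, 5.92 and 45.1 in CK and 15.6, 7.83 and 6.18 in RD. In all 3, CK170 was the highest library. The receptor ETR1 (Cs5g14390) had 28.2 and 59.0, and a pair of genes described as ethylene-overproduction protein 1, known to hold ethylene synthesis down, had 10.1 and 22.5 (Cs6g09000) and 4.29 and 8.93 (Cs8g20570). Downstream of the receptors, EIN2 (Cs6g11930) had 38.5 and 68.8 and EIN3 (Cs2g29100) 61.2 and 104, both within 2-fold. The difference between CK and RD rests on 4 pools and was not tested.

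Abscisic acid genes changed little as a list, with 3 higher and 1 lower of 16 and a median of 0.34, which became -0.32 relative to ACTIN. None of these members was described as an enzyme of its synthesis or as its receptor, so the list does not cover these parts of the pathway. Zeaxanthin epoxidase, which acts upstream in abscisic acid synthesis, was counted in the carotenoid list instead. Abscisic acid 8'-hydroxylase 4 (Cs8g05940), which breaks the hormone down, fell from 22.8 to 1.25 in CK and from 50.6 to 23.8 in RD. The hydroxylase of the same activity Cs6g19380 had 32.4 and 38.0 in CK80 and CK170. Abscisic stress-ripening protein 1 (Cs3g21510), of a family named for its rise in ripening fruit, rose from 65.3 to 195 in CK and from 46.7 to 428 in RD. Its more abundant relative Cs3g21500 had 353 and 691 in CK, which is just short of the limit, and 299 and 1077 in RD. Of the phosphatases 2C, which restrain the abscisic acid signal and are themselves induced by it, Cs4g14980 rose from 6.12 to 25.03 and Cs5g30740 from 3.33 to 11.5, while the abundant Cs7g31880 had 119 and 164.

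**Figure D4:**
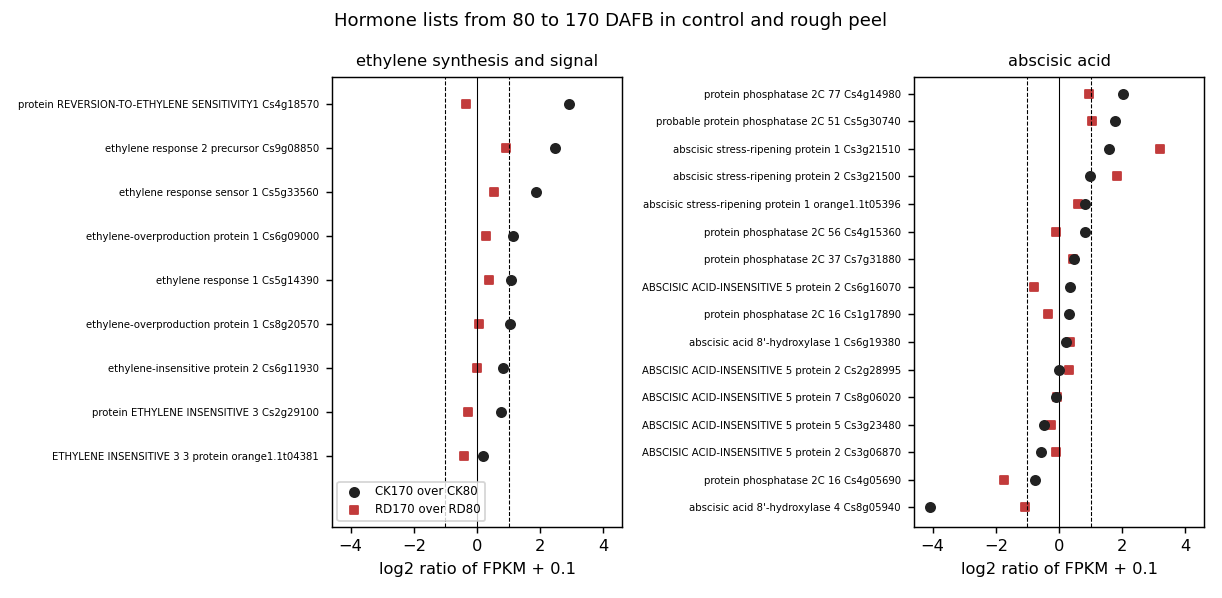
Log2 ratio of FPKM with 0.1 added from 80 to 170 DAFB in CK (black circles) and RD (red squares) for each compared member of the ethylene and the abscisic acid list; dashed lines mark 2-fold. On the deposited scale all 9 ethylene genes lay above 0 in CK, 6 of them past the limit (3 relative to ACTIN), and none passed it in RD.

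Growth hormone genes showed single large changes, and the balance of their calls depended on the scaling. Of 45 auxin genes 10 were higher and 10 lower (median -0.05), beside 14.4% and 17.3% of all genes in CK. Relative to ACTIN 6 were higher and 22 lower (median -0.70). Auxin-binding protein ABP19a (Cs1g17550), of the germin-like proteins, fell from 205 to 1.48, and YUCCA10 (Cs5g32420), of auxin synthesis, from 124 to 9.74. GH3.1 (Cs1g22140), of the enzymes that bind auxin to amino acids, had 16.8 in CK170 and at most 0.25 in the other libraries. Of 15 gibberellin genes 3 were higher and 5 lower (median -0.78), and relative to ACTIN 2 and 9. Gibberellin 2-beta-dioxygenase 8 (Cs6g09810), which inactivates the hormone, rose from 0.75 to 13.3 in CK and from 0.71 to 7.71 in RD. Among the small proteins named after their response to gibberellin, Cs3g26100 rose from 192 to 548 and Cs6g21260 from 9.92 to 83.3, while Cs6g20220 fell from 126 to 18.7. Cytokinin had 4 higher and 8 lower members of 23 (median -0.19). The response regulator ARR9 (orange1.1t01850) fell from 15.3 to 0.31 and phosphotransfer protein 1 (Cs9g05280), which relays the signal, from 24.6 to 0.93. Jasmonate had 4 and 5 of 19, with a median of 0.26 that became -0.40 relative to ACTIN. Its 13-lipoxygenases, which start the pathway from linolenic acid, went different ways. One of them (orange1.1t03769) was listed at 0 in CK80 and had 282 in CK170, against at most 2.26 in the other libraries. Another (orange1.1t04376) rose from 258 to 925, and orange1.1t03773 fell from 232 to 61.9 in CK and had 276 and 253 in RD.

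Genes of a list drawn up for cellulose and hemicellulose were mostly lowered, and single genes of wall loosening rose to high levels. Of its 32 members 20 were lower and 4 higher (median -2.18). Cellulose synthase-like protein B4 (Cs2g21100) fell from 104 to 13.4. The list also held fasciclin-like arabinogalactan protein 13 (Cs2g16140), a surface glycoprotein, which fell from 9.34 to 0.41. Endoglucanase 8 (Cs2g17090), which cuts glucan chains, fell from 7.83 to 0.06. The counts are thus not of synthesis enzymes alone. Risers included other branches of the cellulose synthase-like family, protein E6 (Cs4g08470) from 10.1 to 124 and G2 (Cs9g08730) from 11.9 to 76.6. Expansins and xyloglucan enzymes had 3 higher and 8 lower of 21 (median -0.81). Expansin-A1 (Cs5g10820) nevertheless became the leading expansin, with 7.41, 428 and 2203 in CK and 49.6, 457 and 1660 in RD. Expansin-A4 (Cs6g06530), the most abundant one in CK80, fell from 516 to 242, and a second gene of this name (Cs8g18640) from 67.4 to 5.96. Expansin-A5 (Cs6g21460) had 258 and 146 in CK and rose from 345 to 857 in RD. Pectin enzymes had 12 higher and 15 lower of 50 (median -0.14), beside 14.4% and 17.3% of all genes. Pectate lyase 18 (Cs5g06600), which cuts pectin chains, had 31.2, 113 and 1045 in CK and 48.7, 140 and 520 in RD, and so became the most abundant pectin enzyme of CK170. Rhamnogalacturonate lyase B (Cs3g16950) rose from 0.77 to 37.1 and pectinesterase PPME1 (Cs7g19180) from 1.08 to 54.4. Pectinesterase 3 (Cs1g16550), the leading one in CK80, had 499 and 260, and pectinesterase/inhibitor 54 (Cs4g06710) fell from 29.5 to 0.23. Aquaporins, the water channels of cell growth, had 11 lower and 2 higher of 13 (median -3.18). The plasma membrane channel PIP1-2 (Cs5g03460), the most abundant of them, fell from 508 to 235 in CK and had 741 and 676 in RD, and the tonoplast channel TIP2-1 (Cs1g15440) fell from 20.8 to 0.06. Probable aquaporin TIP3-2 (Cs5g17210), known from the vacuoles of seeds, was listed at 0 in CK80 and had 21.2 in CK170, against 0.06 in RD170.

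Enzymes of organic acid, sugar and nitrogen metabolism included few strong changes, several of them in abundant genes. Organic acid metabolism had 7 higher and 4 lower of 24, beside 14.4% and 17.3% of all genes. Its median of 0.47 became -0.18 relative to ACTIN. Phosphoenolpyruvate carboxykinase (Cs3g16700) had 4.02, 78.3 and 1499 in CK and 12.4, 70.3 and 904 in RD, rising at both steps in both peels. ALMT9 (Cs5g02830), a vacuolar malate channel, rose from 0.83 to 16.1, whereas glutamate decarboxylase (orange1.1t01622) fell from 376 to 83.5. A pair of malate dehydrogenase genes (Cs5g18090 and orange1.1t04273), with 5.11 in CK80 and listed at 0 in CK170, had the same values in all 6 libraries and may be copies of 1 gene. In sucrose and hexose metabolism 1 of 23 was higher and 3 were lower, with a median of 0.34 (-0.32 relative to ACTIN). Sucrose-phosphate synthase 4 (Cs5g19060), of sucrose synthesis, rose from 4.29 to 54.0, and the vacuolar type of invertase, acid beta-fructofuranosidase (Cs5g09220), fell from 308 to 106. Sucrose synthase (Cs4g06850) had 345 and 280. Sugar transporters had 6 higher and 3 lower of 20, with a median of 0.36 (-0.30 relative to ACTIN). SWEET1 (Cs3g20720), a hexose uniporter, fell from 68.4 to 5.08, and the hexose carriers HEX6 Cs9g15290 and Cs9g15300 rose from 1.12 to 11.7 and from 0.14 to 6.41.

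Starch genes had 5 higher and 4 lower of 31 (median 0.16, and -0.50 relative to ACTIN), beside 14.4% and 17.3% of all genes. The large subunit 1 of ADP-glucose pyrophosphorylase (Cs9g06360), of starch synthesis, fell from 38.6 to 1.44. On the side of breakdown, alpha-amylase 3 (Cs7g04310) rose from 21.1 to 117 and alpha-glucan water dikinase (Cs7g09060), which phosphorylates starch for its attack, from 35.9 to 98.9, while beta-amylase 1 (orange1.1t03470) fell from 503 to 161. Nitrogen and amino acid remobilisation, a list of enzymes that release and reassimilate ammonium, had 7 higher and 1 lower of 19, with a median of 0.54 that became -0.12 relative to ACTIN. L-asparaginase 2 (Cs3g23110), which frees ammonium from asparagine, had 18.6, 10.9 and 247 in CK and 57.2, 53.6 and 80.1 in RD. Glutamine synthetase (Cs7g14020), which binds ammonium, rose from 149 to 357, and the NADH form of glutamate synthase (Cs9g17990), the next enzyme, from 57.3 to 136. The ferredoxin form (orange1.1t03572), which works with photosynthesis, had 80.9 and 40.9. Branched-chain aminotransferase 2 (Cs3g16430) rose from 0.64 to 24.8.

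The flavonoid list was mainly lowered, with 18 lower and 8 higher of 37 (median -0.84). At the entry, the chalcone synthases exchanged rank. Cs2g14720 had an FPKM of 2460, 751 and 25.95 in CK and 1806, 924 and 148 in RD. Cs3g19360 had 66.0, 258 and 550 in CK and 26.5, 166 and 508 in RD, so that it rose at each step in both peels. Chalcone isomerase (Cs7g28130), the next enzyme, fell from 64.8 to 4.48, and flavonoid 3'-monooxygenase (Cs1g10500), which adds a hydroxyl group to the B ring, from 145 to 10.1. The most abundant member of CK80 after Cs2g14720 was a flavonol synthase/flavanone 3-hydroxylase (Cs1g19280), with 562 and 313 in CK and 579 and 569 in RD. A naringenin 3-dioxygenase (Cs9g14520) rose from 1.79 to 57.6, while a second one (Cs1g25280) fell from 170 to 50.1.

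Phenylpropanoid and lignin synthesis had 24 lower and 13 higher of 62 (median -0.24). Its summed FPKM was 4191 in CK80 and 1716 in CK170, and a few caffeic acid O-methyltransferases, known from lignin and the methylation of phenols, made up most of the loss. These were orange1.1t04194, with 1819, 1273 and 8.54 in CK and 1617, 1361 and 128 in RD, Cs7g25580, with 756 and 28.4 in CK80 and CK170, and orange1.1t04193, with 153 in CK80 and listed at 0 in CK170. Caffeoyl-CoA O-methyltransferase (Cs1g22450), which acts at an earlier step of lignin, had 515 and 272. Cinnamoyl-CoA reductase 1 (Cs2g30460) was the steepest riser of the list, and laccase-7 (Cs6g07400), of the enzymes that couple lignin units, rose from 0.25 to 7.57.

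Terpene synthases, the enzymes behind the peel oil, had 18 lower and 5 higher of 30 (median -1.68). Limonene synthase 1 (Cs3g04360), which makes the main monoterpene of citrus oil, was the most abundant in both, with 237, 728 and 434 in CK and 537, 619 and 404 in RD. Valencene synthase (Cs5g12900), of a sesquiterpene of ripe citrus peel, was listed at 0 in CK30 and CK80 and had 408 in CK170, and in RD it was listed at 0, then had 0.16 and 306. A farnesene synthase beside it in the numbering (Cs5g12890) was listed at 0 at the earlier stages of both peels and had 93.5 in CK170 and 51.9 in RD170. The farnesene synthases Cs4g12350 and Cs4g12400, described above, went the opposite way. Germacrene D synthase (Cs4g12120) fell from 268 to 8.14 in CK and from 196 to 25.9 in RD. Among limonoid and triterpene genes 5 were higher and 4 lower of 17, with a median of 0.10 that turned negative under each rescaling (-0.09, -0.01 and -0.56 with centring on the overall median, the upper quartile and ACTIN). Limonoid glucosyltransferase (Cs8g04920), which turns bitter limonoids into their tasteless glucosides, had 147, 321 and 650 in CK and 160, 354 and 802 in RD.

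Cuticle and wax genes moved in both directions, with 17 higher and 27 lower of 63 (median -0.33), beside 14.4% and 17.3% of all genes. Fatty acyl-CoA reductase 2 (Cs6g12890), of a family that makes primary fatty alcohols, was listed at 0 at 30 and 80 DAFB in both peels and had 227 in CK170 and 33.7 in RD170. The 3-ketoacyl-CoA synthase 19 (Cs6g02360), of fatty acid elongation, was likewise listed at 0 there and had 30.2 in CK170 and 0.04 in RD170. The lipid-transfer protein Cs5g09390, of a family found in the cuticle, rose from 68.0 to 318. On the falling side, the alcohol-forming reductase Cs8g15240 fell from 34.2 to 0.33, the GDSL lipase Cs2g28140 from 170 to 1.13 and the lipid-transfer protein AKCS9 (Cs6g18330) from 443 to 105 in CK, with 602 and 523 in RD.

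Defence proteins were more often lower than higher, with 25 and 11 of 56 (median -0.78). The miraculin-like proteins Cs5g16770 and Cs5g16780, related to trypsin inhibitors, had their high levels at 30 DAFB. Cs5g16770 had 8194, 1077 and 7.12 in CK and 6498, 2248 and 116 in RD, and Cs5g16780 had 1010 and 13.9 in CK80 and CK170. A glucan endo-1,3-beta-glucosidase (orange1.1t00635), which cuts callose and fungal walls, rose from 4.42 to 108 in CK and from 4 to 133 in RD.

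Transcription factors were described by family, and single members stood out in each. MYB factors had 16 higher and 8 lower of 40, with a median of 0.56 that became -0.10 relative to ACTIN. In RD 4 of 38 compared were higher and 8 lower (median -0.18), near the 8.47% and 17.2% of all genes there. MYB306 (Cs6g21210), of a clade tied to the cuticle and abscisic acid in other plants, had 0.87, 2.21 and 47.8 in CK and 5.73, 7.09 and 18.1 in RD, and MYB86 (Cs6g01750) had 5.88 in CK170 and at most 0.56 elsewhere. The bHLH factors had 14 lower and 2 higher of 27 (median -1.02), with bHLH135 (Cs6g21120) falling from 38.2 to 3.78 and bHLH25 (Cs1g21000) reaching 26.6 in CK170 against at most 1.46 elsewhere. Among 37 ERF and AP2 factors 10 were higher and 16 lower (median -0.21). ERF061 (Cs5g02340) rose from 4.36 to 57.8 in CK and had 6.18 and 5.36 in RD, and the abundant ERF5 (Cs9g13620) rose from 116 to 474 in CK and had 185 and 276 in RD. Of 31 members compared in RD 1 was higher and 6 were lower, beside 8.47% and 17.2% of all genes there.

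NAC factors had 6 higher and 6 lower of 27, beside 14.4% and 17.3% of all genes. Their median of 0.04 turned to -0.15, -0.06 and -0.62 under the 3 rescalings. NAC72 (Cs1g06760), known in Arabidopsis from drought and senescence, had 38.6, 20.9 and 82.3 in CK and 40.4, 14.4 and 15.5 in RD. WRKY factors had 7 higher and 5 lower of 23, with a median of 0.11 that was -0.08 with centring on the overall median and -0.55 relative to ACTIN. WRKY28 (Cs7g17180) rose from 3.06 to 34.2 in CK and from 4.52 to 11.9 in RD, and WRKY53 (orange1.1t00472), a factor of leaf senescence in Arabidopsis, fell from 190 to 57.7. MADS-box factors, the family of floral and fruit identity genes, had 7 lower and 3 higher of 18 (median -0.33). The FLOWERING LOCUS C-like gene Cs5g10810, whose Arabidopsis relative represses flowering, fell from 264 to 21.7 in CK and from 260 to 30.2 in RD, and AGL1 (Cs7g16960) had 98.9 and 97.5. GOLDEN2-like, TCP and growth-regulating factors, led in their falls by GLK1, had 5 lower and none higher of 13 (median -0.65).

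Clock genes, whose levels swing within a day, had 5 higher and 5 lower of 15, with a median of 0.33 that became -0.33 relative to ACTIN. In RD 3 were higher and 6 lower of 15 (median -0.46), beside 8.47% and 17.2% of all genes there. LHY (orange1.1t00580), which peaks at dawn, had 338 in CK80 and 9.24 in CK170, and 384 and 22.7 in RD80 and RD170. GIGANTEA (Cs3g21790), an evening gene, had 45.2 and 230 in CK and 36.6 and 187 in RD, and APRR5 (Cs5g16360), which in Arabidopsis represses LHY, had 2.02 and 24.6, and 0.70 and 15.2. These 3 genes differed between the stages in the same sense in both peels. The hour at which fruits were picked is not given in the sources used here, and its part in these or any other results was not tested. CONSTANS-LIKE 16 (Cs7g26690) fell from 30.2 to 0.12.

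Cell division genes had 25 lower and 7 higher of 83 (median -0.48). In RD 43 of 102 compared were lower and 2 higher, beside 17.2% and 8.47% of all genes there. The abundant histones stayed near their level, with 116 and 168 for histone H3 (Cs3g25740) and 121 and 69.5 for histone H2A (Cs6g05830). A kinesin (Cs1g20970), a motor protein of the dividing cell, fell from 7.03 to 0.25. Cytosolic ribosomal proteins were among the least changed lists, with 2 higher and none lower of 51 and a median of 0.28, which became -0.37 relative to ACTIN. Heat shock proteins were included as a sign of stress or handling. In CK 10 were higher and 5 lower of 41, beside 14.4% and 17.3% of all genes. Their median of 0.26 became -0.39 relative to ACTIN. Their abundant members differed little in CK, such as Hsp90 (Cs4g08220) with 663 and 609 and the heat shock protein Cs4g05780 with 1469 and 1236. In RD 15 of 41 were higher and 4 lower, beside 8.47% and 17.2% of all genes there, and the summed FPKM of the list rose from 3116 to 7657. Hsp90 had 835 and 1029 in RD80 and RD170, and Cs4g05780 had 524 and 2216. The regulator HSF30 (Cs4g14590) rose from 1.14 to 32.9 in CK and from 1 to 17.5 in RD. Enzymes of reactive oxygen had 4 higher and 11 lower of 36 (median -0.26), with peroxidase 15 (orange1.1t02046) at 52.9 and 1.13 and catalase 1 (Cs3g27290) at 239 and 159. Autophagy and vacuolar proteases had 5 and 11 of 42 (median -0.04), although their summed FPKM rose from 1654 to 3389, of which RD21a (Cs3g23180) held 478 and 2373.

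**Figure D5:**
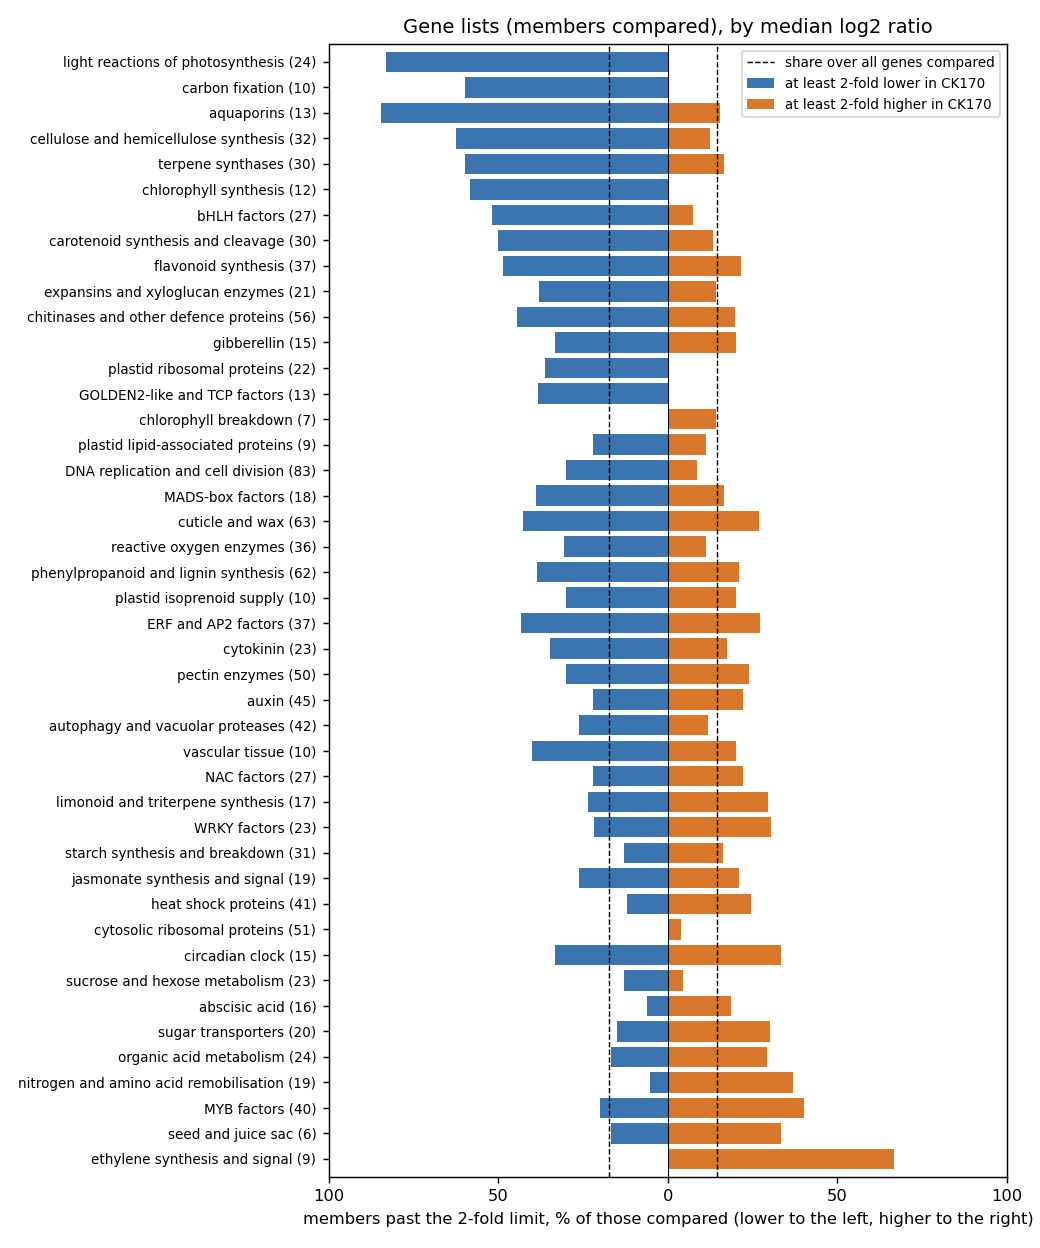
Share of each gene list (members compared in brackets) that was at least 2-fold lower (blue, to the left) or higher (orange, to the right) in CK170 than in CK80, ordered by median log2 ratio; dashed lines mark the 17.3% lower and 14.4% higher over all genes. The light reactions had 20 of 24 members lower and the ethylene list 6 of 9 higher.

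The pools were checked for signs of other tissue, and totals were compared between libraries. The summed FPKM lay between 587201 and 628627 in the 6 libraries, and 20339 to 20997 genes had an FPKM above 0. FPKM are already scaled to library size, so this sum does not show depth. Of 6 compared genes typical of seed and juice sac 2 were higher and 1 was lower, beside 14.4% and 17.3% of all genes. The abundant one, late embryogenesis abundant protein Lea5 (Cs9g04210), which vegetative tissue makes too, had 691 and 1350, while oleosin 1 (orange1.1t03751), of seed oil bodies, had 11.5 and 17.02. An 11 kDa late embryogenesis abundant protein (orange1.1t02242) rose from 0.11 to 8.49 in CK, and in RD it was listed at 0 at 80 DAFB and had 4.93 at 170 DAFB. Probable aquaporin TIP3-2 (Cs5g17210), of seed vacuoles but counted with the aquaporins, was listed at 0 in CK80. It had 21.2 in CK170 and 0.06 in RD170. Of 10 genes of vascular tissue 2 were higher and 4 lower, and their summed FPKM was 122 in CK80 and 112 in CK170. Xylem cysteine proteinase 1 (Cs8g01170), found in dying xylem cells, fell from 56.8 to 0.47, and the phloem protein Cs2g10910 rose from 15.2 to 81.3 in CK and had 9.61 and 9.86 in RD. The part of tissue makeup in the results was not tested.

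The same step in RD peel, which shares no library with the CK step, had fewer rises on the deposited scale. Of 17601 genes compared 1490 rose at least 2-fold from RD80 to RD170 and 3032 fell, with a median log2 ratio of -0.05. In CK this median was 0.18, and 1972 genes instead of 2548 rose there with centring on the overall median. RD ratios were not rescaled, so how far the difference in rises depends on scaling was not tested. Of the genes higher in CK170 911 were also higher in RD170, which is 35.8% of the CK list and 61.1% of the RD list. Of all genes compared in RD 8.47% were higher. The lower genes overlapped by 1950, or 63.6% of the CK and 64.3% of the RD list, while 17.2% of all genes compared in RD were lower. Opposite calls were rarer, with 78 genes higher in CK170 and lower in RD170, and 38 the reverse. For the light reactions 20 members were lower in each peel, of 24 compared in CK and 25 in RD, but the median was -5.15 in CK and -3.29 in RD, and for carbon fixation it was -3.58 and -1.58. Chlorophyll synthesis had 7 lower members in each peel, with medians of -1.11 and -1.36.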

How the data were processed

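Total RNA of the pooled peel was enriched for mRNA with oligo (dT) beads and sequenced on an Illumina platform. According to the methods and processing notes, the authors removed low-quality reads, used Bowtie and BWA to align the rest to the Citrus sinensis genome, and estimated the FPKM of each gene with RSEM (versions not given in the sources used here). The deposited table holds FPKM with 2 decimals for 6 libraries, from which reads per gene could not be recovered, so the authors' FDR test was not run. Gene names are those of the best protein match in the table, and reference annotation in hand did not share its identifiers, so no coordinates or sequences are given.

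Ratios are log2 of FPKM with 0.1 added, which understates the change of low genes; a fold given as such is the plain ratio of FPKM. Genes with an FPKM of at least 1 in the higher library were compared, and those at least 2-fold apart were called, in Python 3.11.15 with pandas 2.3.3. The counting code was run on simulated FPKM with planted changes well past the limit and little noise. This checked the code only, not the error of calls in these pools. In all, 44 lists were drawn up from gene descriptions. The genes named are the 12 largest rises and falls among described genes with an FPKM of at least 20 and above 0 in both libraries. Also named are the 10 most abundant described genes of each library, and per list the 3 most abundant and the 2 largest changes each way. Members of short pathways are named by step. The genes and lists were chosen with earlier results of these data known. Alternatives were other minimum levels, pseudocounts, scalings and a 4-fold limit.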

Additional observations from a re-analysis of the deposited data

Results flagged for a closer look

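A beta-amyrin synthase (Cs2g08460), of triterpene synthesis, moved in opposite directions in both peels. Its FPKM was 1.23, 1.97 and 36.1 in CK30, CK80 and CK170 and 0.86, 3.29 and 0.94 in RD30, RD80 and RD170, which gave log2 ratios from 80 to 170 DAFB of 4.13 in CK and -1.70 in RD. Each ratio rests on 1 pool per stage, and the difference between them was not tested.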

How the results depend on the processing

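No paired analysis was possible because each condition had 1 library and the labels give no replicate numbers. Relative to ACTIN 1205 genes were higher and 5212 lower, and with a 4-fold limit 924 and 1536. Of the ethylene genes, 3 were higher with ratios centred on their overall median and 3 with ACTIN scaling, instead of 6. With a minimum FPKM of 5, 13 genes of the cellulose and hemicellulose list and 11 terpene synthases were lower, instead of 20 and 18, since fewer genes were compared. Of the 88 higher and lower counts of all 44 lists, 40 moved by more than 1.5 times relative to ACTIN, 22 with a minimum FPKM of 5, 18 with no minimum, 7 with the overall median at 0, 6 with 1 added, 4 with upper quartile scaling and 0 with nothing added. Under the other 6 alternatives both total counts stayed within 1.5 times. Of the 378 genes that the naming rule covers, none turned in direction as a call; relative to ACTIN 21 were no longer called and 42 became called, with the overall median at 0, 8 and 13, and with 1 in place of 0.1 added 6 and 0. As FPKM carry no reads, counting error of weak genes is unknown, and the spread between fruits or trees was not measured.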

Other observations

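Some further members of the lists changed strongly and are given as values in CK80 and CK170. Both 12-oxophytodienoate reductases described as 11-like, of a family of jasmonate synthesis, fell, orange1.1t03728 from 9.23 to 0.22 and orange1.1t03727 from 11.7 to 1.12. A cytokinin-activating phosphoribohydrolase (Cs4g05560) rose from 8.47 to 32.0 in CK and from 5.90 to 31.3 in RD, whereas the more abundant gene of this kind (Cs8g16360) had 308 and 199 in CK. The cold and drought factor DREB1B (orange1.1t01154) fell from 50.9 to 6.54, and AGL8 (Cs6g19710), related to the FRUITFULL gene of Arabidopsis, from 14.7 to 0.91. The auxin efflux carrier PIN3 (Cs2g16620) rose from 8.18 to 33.0 in CK and had 17.1 in both RD80 and RD170. The proteinase PCS1 (Cs6g17090), known in Arabidopsis to restrain cell death, fell from 189 to 42.2 in CK and had 166 and 116 in RD.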
